A study of Mus musculus with 6 samples.

Results

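The cytoskeleton of newborn cortical neurons was followed here through 40 genes, chosen by symbol from the table of all genes: 7 tubulins, 6 structural microtubule-associated proteins, 3 members of the doublecortin family, 4 partners of dynein, minus ends and axonal transport, 4 stathmins, 5 collapsin response mediator proteins (CRMPs), 4 neurofilament proteins, 4 growth cone membrane proteins, 2 actin regulators and the reticulon Rtn1. All 40 were found among the 35510 genes of the table, and all 40 were among the 22479 genes with a mean of at least 10 normalised counts that entered the test. The libraries were made from mouse cortical neurons of wild-type Swiss (RjOrl:SWISS) background at birth (P0), after in utero electroporation on embryonic day E15.5. The sponge group (3 libraries) had received a plasmid carrying a miR-17-5p sponge, and the control group (3 libraries) a control plasmid. Both groups thus share the strain, the age and the electroporation. Each library held 50 ng of total RNA from about 100000 cells of about 10 pooled brains. The description of every library carries the tag FACS, for fluorescence-activated cell sorting. The labels do not say whether the 3 pools of a group came from separate litters or days, so p-values measure the spread between these pools. The promoter of the plasmids is not given in the sources used here, and mature microRNAs were not analysed here.

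Microtubules are polymers of alpha and beta tubulin. In a young neuron they fill the axon and the leading process, where microtubule-associated proteins bundle and stabilise them, stathmins hold free tubulin dimers and promote disassembly, and CRMPs carry dimers towards the growing tip. The growth cone at that tip adds a layer of membrane-bound proteins that couple the plasma membrane to actin, and neurofilaments are added to the axon as it matures. Changes in tubulin or doublecortin genes are known from human brain malformations with misplaced neurons and missing or thin commissures. The series title places the comparison within a study of miR-17-5p and the wiring between the hemispheres after prenatal alcohol exposure. A sponge is a transcript with repeated microRNA binding sites that takes the microRNA away from its own targets.

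The sequence through which miR-17-5p recognises a transcript is shown first, since it gives a property of the 40 genes that their selection did not use. In the mature microRNA, from RefSeq on GRCm38.p6 (chr14:115043684-115043706, plus strand), capitals mark bases 2 to 8, the seed.
miR-17-5p: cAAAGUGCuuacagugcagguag
The match to that seed in a 3′ UTR, GCACTTT, was searched on the transcript strand in the longest annotated 3′ UTR of each gene (GENCODE M21, GRCm38). It was present in 7 of the 40 genes (17.5%), against 14.1% of 15198 tested genes whose 3′ UTR was annotated over 50 bases or more. The median length of that 3′ UTR was 1503 bases over the 40 and 1167 over those tested genes, and the shares were not adjusted for length. The 7 were Dcx, Dclk2, Pafah1b1, Ndel1, Map2, Dpysl2 and Dpysl5, with 2 matches each in Dclk2 and Dpysl5. No match was found in the longest 3′ UTR of any tubulin, stathmin, neurofilament or growth cone membrane gene of the set. One site each is shown for the 3 neuronal migration genes and Map2, with the 7-base match in capitals and the transcript sequence around it in lower case.
Dcx (chrX:143858339-143858345, minus strand): agaattctcagttgaaagtaagGCACTTTc
Dclk2 (chr3:86789004-86789010, minus strand): cagaggccgatggctccgggttGCACTTTa
Pafah1b1 (chr11:74674871-74674877, minus strand): gttgcttttcacatgacatcttGCACTTTa
Map2 (chr1:66439659-66439665, plus strand): aagtgcatctcttaggattgatGCACTTTt
In Dclk2 and Pafah1b1 the match is followed by an adenine, a context known to favour microRNA binding. A match is a stretch of letters and not a measured site.

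None of the 40 genes differed between sponge and control libraries past an adjusted p of 0.05 (limma with Benjamini-Hochberg adjustment over all tested genes), and the smallest adjusted p among them was 0.92. The same fit called 0.00% of all tested genes higher and 0.00% lower. None of the 40 had an unadjusted limma p under 0.05, a level passed by 1.58% of all tested genes in the higher and 1.31% in the lower direction. By sign, 14 of the 40 had a log2 fold change (sponge over control) above 0 and 26 below 0, where 50.9% of all tested genes were above 0 and 49.1% below. The median log2 fold change of the 40 was -0.09, and that of all tested genes 0.01. The authors' deposited table of sponge against control holds 10812 genes, the lowest with a mean of 1003 normalised counts. It lists 37 of the 40, not Nefl, Nefm and Nefh, whose means were 114, 588 and 122. Of the 37, 13 were above 0 and 24 below, 1 had a p under 0.05 and 0 had an adjusted p under 0.05. The same shares over all genes of that table were not computed, so these counts have no background beside them. In RNA of pooled cells, fewer cells of a type and less RNA per cell cannot be told apart.

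Normalised counts summed to 120284000 to 125814000 per library in the sponge group and 121191000 to 124899000 in the control group. The 40 genes took 2.52% to 2.66% of these sums in the sponge group and 2.41% to 3.21% in the control group, with the highest share in control library 1. Control library 1 stood apart. It gave the highest of the 6 values for 22 of the 40 genes and the lowest for 10, while over all tested genes it was highest in 33.8% and lowest in 36.7%. Summed markers of projection neurons (217070 to 218325 normalised counts in the sponge group, 200810 to 239942 in the control group) were found beside those of radial glia and progenitors (467721 to 586325 in sponge, 445882 to 600645 in control) and of the oligodendrocyte lineage (115252 to 128590 in sponge, 88456 to 108365 in control). The libraries labelled as cortical neurons thus also held RNA of glial and progenitor genes. All 7 oligodendrocyte lineage markers were above 0 in log2 fold change, where 50.9% of all tested genes were. Groups did not overlap for 4 of them, with sponge above control, against 6.17% of all tested genes. An unadjusted limma p under 0.05 was found for 3, against 1.58% in the higher direction. Groups also did not overlap, with sponge above control, for 2 of 10 radial glia and progenitor markers (Mki67 and Slc1a3) and 1 of 7 astrocyte markers (Aqp4). For 1 of 10 projection neuron markers, Neurod2, the sponge group was wholly below the control group (61997 to 64498 against 68324 to 76320 normalised counts). Of all tested genes, 11.2% had groups that did not overlap in either direction. None of the 7 oligodendrocyte lineage markers was called, and their part in the values below was not tested. Control library 1 also had the highest sum of erythroid markers, 32202 normalised counts against 1392 to 4206 in the other 5 libraries. Values without control library 1 are given beside the results it moves.

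Of the role groups, the 7 tubulins had the highest summed counts, and Tuba1a had the highest mean count of any single gene of the set. Tuba1a, the main alpha tubulin of young neurons (chr15:98949837-98953703, minus strand), had 400389, 427923 and 416129 normalised counts in sponge libraries 1, 2 and 3, against 649108, 374715 and 347632 in control libraries 1, 2 and 3. All 3 sponge values lay between control library 1 and the other 2 control libraries. Its log2 fold change was -0.08 ± 0.24 (SE; 95% interval -0.63 to 0.47, limma adjusted p = 0.96). Without control library 1 it was 0.20 ± 0.09 (limma adjusted p = 0.66), and the groups then did not overlap.

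Control library 1 was also the highest for the beta tubulins. Tubb3, the neuron-specific beta tubulin (chr8:123411424-123422015, plus strand), had 130766, 142118 and 146370 normalised counts in the sponge libraries and 207104, 157923 and 126803 in the control libraries. Tubb5, the most highly counted beta tubulin (chr17:35833921-35838306, minus strand), had 287521, 308676 and 323152 in the sponge libraries and 473474, 344704 and 264803 in the control libraries. In each of these genes the sponge values lay within the range of the control values, whose top was control library 1. The log2 fold change was -0.20 ± 0.19 for Tubb3 (SE; 95% interval -0.64 to 0.24), and -0.02 without control library 1. That of Tubb5 was -0.20 ± 0.21 (SE; 95% interval -0.69 to 0.30), and 0.02 without that library.

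The other 4 tubulins were Tubb2a, Tubb2b, Tubb4a and Tuba1b, isotypes used throughout the developing brain, with log2 fold changes between -0.20 and -0.03, and between 0.03 and 0.17 without control library 1. All 7 tubulins were highest of all libraries in control library 1. Their median log2 fold change was -0.18 with 0 of 7 above 0, and 0.05 with 6 of 7 above 0 once control library 1 was left out. Summed over the 7, the tubulins reached 1181649, 1256285 and 1263788 normalised counts in the sponge libraries, against 1903106, 1277827 and 1061307 in the control libraries. Some of these genes share long stretches of exon with near copies. Of the 50-base windows of their exons, 72.9% in Tuba1a, 66.7% in Tuba1b, 49.6% in Tubb2a and 36.9% in Tubb2b also occur in another annotated gene, so counts of those 4 are uncertain in their split. For Tubb3 and Tubb5 the shares were 0% and 0.089%.

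**Figure D1:**
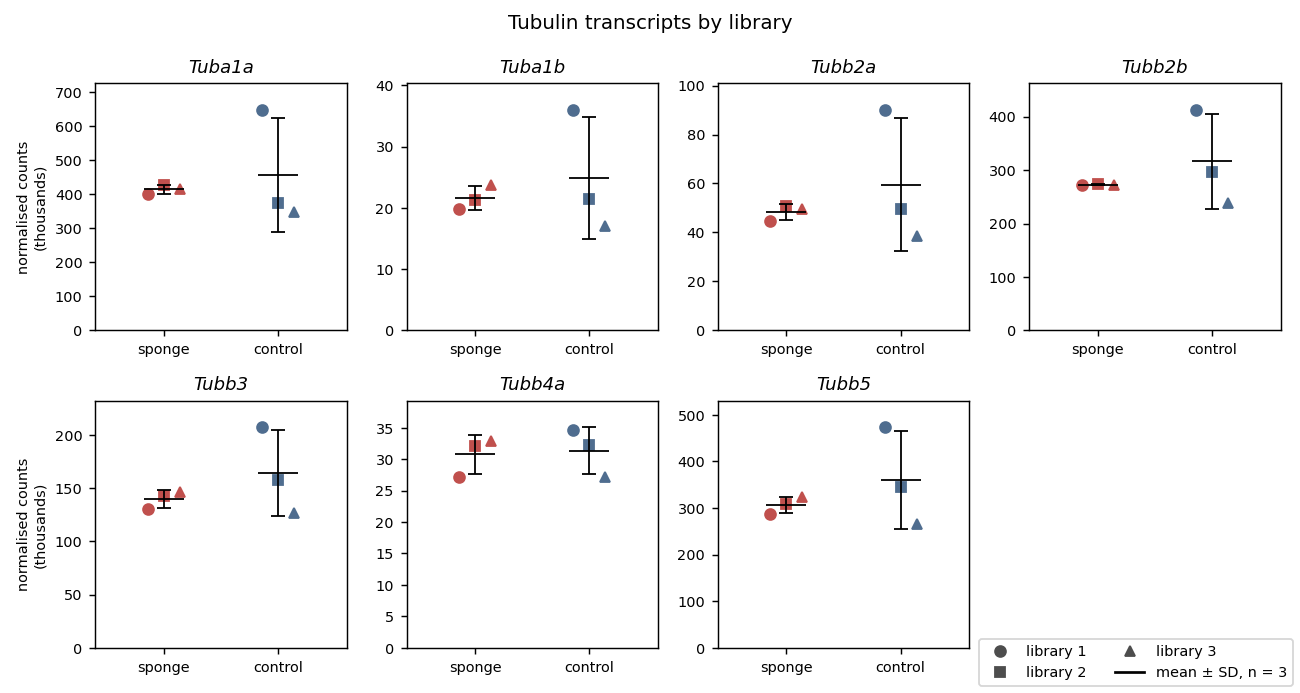
Normalised counts of the tubulin genes in each library (points; black bars, group mean with SD), sponge group left of control group. Control library 1 is the highest point for all 7, for example 649108 for Tuba1a, while the other 2 control libraries lie near the sponge libraries.

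The make-up of the beta tubulin pool was described by shares within each library, taken over 8 beta tubulin genes after dividing each count by the length of its exons, so that library scaling cancels. Tubb2b held 36.7%, 34.8% and 34.0% of the pool in the sponge libraries and 34.8%, 34.9% and 35.4% in the control libraries. Tubb5 held 26.9%, 27.1% and 27.9% in the sponge libraries and 27.5%, 27.9% and 27.0% in the control libraries. For Tubb3 the shares were 21.7%, 22.2% and 22.5% in the sponge libraries and 21.5%, 22.8% and 23.1% in the control libraries. The ranges of sponge and control shares overlapped for each of these isotypes. Where the counts of control library 1 stood highest, its shares of Tubb2b, Tubb5 and Tubb3 lay within a few percentage points of those of the other libraries. Tubb2a held 8.64%, 9.24% and 8.83% in the sponge libraries and 10.8%, 8.32% and 8.12% in the control libraries. Tubb4a held 3.79%, 4.21% and 4.24% in the sponge libraries and 3.0%, 3.89% and 4.15% in the control libraries. In control library 1, then, the share of Tubb2a was the highest and that of Tubb4a the lowest of the 6, and the groups overlapped for both. Among 5 alpha tubulin genes, Tuba1a held 93.8%, 93.9% and 93.4% in the sponge libraries, against 93.6%, 91.8% and 93.5% in the control libraries.

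**Figure D2:**
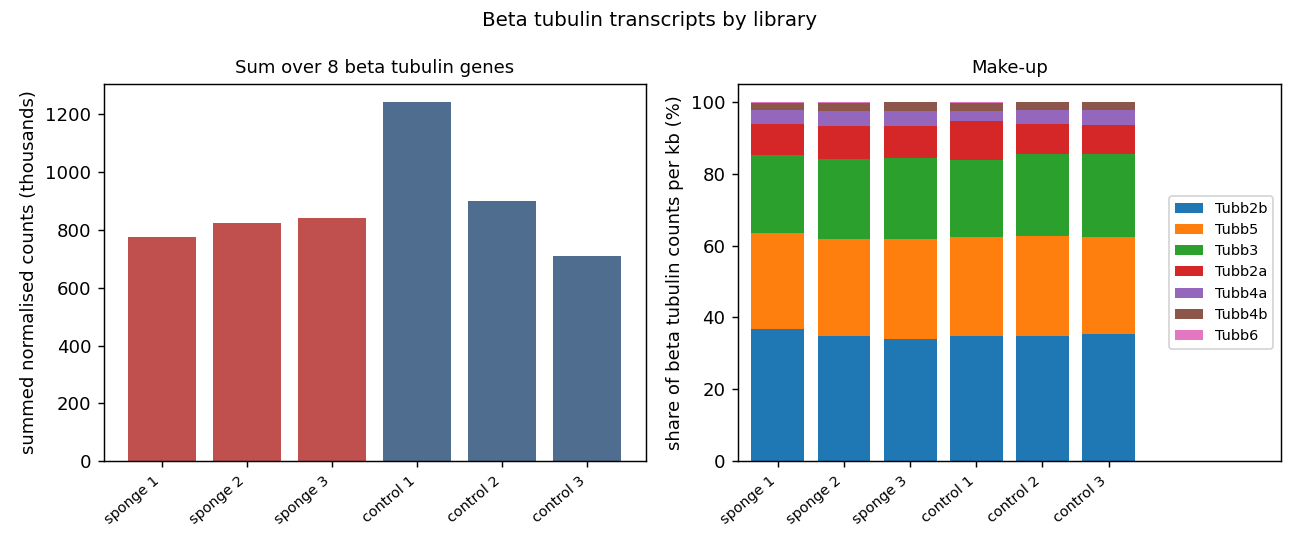
Summed normalised counts of 8 beta tubulin genes in each library (left panel), and the share of each isotype in percent of their summed counts per kb of exon (right panel), with sponge libraries left of control libraries. The sum is highest in control library 1, at 1243492 normalised counts. Tubb2b, Tubb5 and Tubb3 keep their order in every library, with Tubb2b between 34.0% and 36.7%.

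Structural microtubule-associated proteins set the spacing and stability of microtubules. Map2, the main such protein of dendrites (chr1:66175273-66442583, plus strand), had 120881, 117116 and 117268 normalised counts in the sponge libraries and 83007, 113260 and 110671 in the control libraries. Every sponge value was above every control value, as in 6.17% of all tested genes. Map2 had a log2 fold change of 0.22 ± 0.15 (SE; 95% interval -0.13 to 0.58, limma adjusted p = 0.92), and 0.08 ± 0.08 without control library 1. Its 3′ UTR holds 1 of the seed matches printed above.

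Mapt, which encodes the axonal protein tau (chr11:104231390-104332090, plus strand), stood the other way. Its values were 70428, 72115 and 67363 in the sponge libraries and 82951, 75543 and 73895 in the control libraries. The groups did not overlap, with sponge below control, an arrangement found in 5.04% of all tested genes. Mapt had a log2 fold change of -0.15 ± 0.12 (SE; 95% interval -0.41 to 0.12, limma adjusted p = 0.92), and -0.10 without control library 1. Map2 and Mapt thus had groups that did not overlap in opposite directions, neither past the threshold.

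Map1b, a protein of growing axons (chr13:99421446-99516540, minus strand), had 78515, 68974 and 78008 normalised counts in the sponge libraries, against 53994, 71878 and 70476 in the control libraries, with a log2 fold change of 0.21 ± 0.15 (SE), or 0.08 without control library 1. The lowest sponge value lay below 2 of the control values, so the groups overlapped. Map1a, its relative of more mature neurons, had 0.22 ± 0.16, Map4, a broadly expressed stabiliser, 0.01 ± 0.12, and Map6, which makes microtubules resistant to cold, -0.05 ± 0.11 (log2 fold change, SE). These became 0.05 for Map1a, -0.07 for Map4 and -0.09 for Map6 without control library 1. Over the 6 genes the median was 0.11 with 4 above 0, and -0.01 with 3 above 0 without control library 1, in which 4 of the 6 had their lowest value.

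Doublecortin proteins bind along the microtubules of migrating neurons. Dcx (chrX:143855842-143933311, minus strand), a marker of young neurons, had 182928, 166353 and 171081 normalised counts in the sponge libraries, against 94717, 167562 and 169192 in the control libraries. Control library 1 alone lay far below the other 5 libraries. Dcx had a log2 fold change of 0.32 ± 0.23 (SE; 95% interval -0.22 to 0.85, limma adjusted p = 0.92), and 0.04 without that library. Dclk1, a related protein that also carries a kinase domain, had 46590, 45424 and 44485 in the sponge libraries and 35286, 46135 and 45565 in the control libraries, with a log2 fold change of 0.11 ± 0.14 (SE). Here too the low value was that of control library 1, and the log2 fold change was -0.01 without it. Dclk2, the third of the family, was singled out after its values were seen. It had 53466, 62223 and 51643 normalised counts in the sponge libraries and 44416, 61300 and 79340 in the control libraries, which spread on both sides of the sponge group. Its log2 fold change was -0.11 ± 0.21 (SE). Leaving out control library 1 gave -0.33 ± 0.12 for Dclk2, with a limma adjusted p = 0.65. It had the most seed matches of the set together with Dpysl5.

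Pafah1b1 encodes LIS1, a regulator of dynein whose loss causes lissencephaly in humans, and Ndel1 encodes its binding partner. Pafah1b1 (chr11:74673949-74724670, minus strand) had 45212, 45486 and 48167 normalised counts in the sponge libraries, against 38677, 49422 and 46909 in the control libraries. Ndel1 had 7689, 7152 and 6709 in the sponge libraries, against 6807, 6827 and 6850 in the control libraries. The sponge values of both genes overlapped the control values, with log2 fold changes of 0.05 ± 0.13 for Pafah1b1 and 0.07 ± 0.11 for Ndel1 (SE), or -0.06 and 0.07 without control library 1. Fez1, an adaptor between kinesin and its axonal cargo, had 41297, 38040 and 38898 in the sponge libraries and 55158, 38968 and 34318 in the control libraries. Only control library 1 lay well above the sponge values of Fez1, and its log2 fold change of -0.09 ± 0.18 (SE) became 0.11 without that library. Camsap1, which binds minus ends, had a log2 fold change of 0.01 ± 0.15 (SE), or -0.14 without control library 1, and 12.8% of its exon windows also occur in another annotated gene.

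Among the stathmins was the member with the smallest p. Stmn1, the stathmin of dividing progenitors and young neurons (chr4:134468320-134473843, plus strand), had 63258, 63008 and 68478 normalised counts in the sponge libraries, against 121916, 83913 and 68006 in the control libraries. The groups overlapped only because sponge library 3 was above control library 3. For Stmn1 the log2 fold change was -0.45 ± 0.21 (SE; 95% interval -0.94 to 0.04, limma adjusted p = 0.92). Without control library 1 it was -0.22 ± 0.10 (limma adjusted p = 0.66), so its direction did not rest on that library while its size did. The authors' deposited table gives Stmn1 a log2 fold change of -0.49 with a p of 0.0327 and an adjusted p of 0.995. Of its exon windows, 18.9% also occur in another annotated gene.

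Stmn4, a stathmin of differentiated neurons, had 15277, 15737 and 15316 normalised counts in the sponge libraries, against 29299, 16223 and 15360 in the control libraries. Its log2 fold change was -0.33 ± 0.24 (SE), and -0.03 without control library 1, the only library far from the rest. Stmn2, a growth cone stathmin, and Stmn3 had log2 fold changes of -0.20 ± 0.23 and -0.21 ± 0.29 (SE), which were 0.07 and 0.16 without control library 1. The median of the 4 was -0.27 with 0 above 0, and 0.02 with 2 above 0 without that library. The sums over the 4 were 129191, 130012 and 136627 normalised counts in the sponge libraries and 241914, 151389 and 128156 in the control libraries.

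CRMPs relay semaphorin signals to microtubules. Dpysl2, which encodes CRMP2 (chr14:66802864-66868688, minus strand), had 24107, 19725 and 22508 normalised counts in the sponge libraries, against 50389, 23733 and 21386 in the control libraries. The value of control library 1 lay far above all others, and the log2 fold change of -0.42 ± 0.31 (SE) was -0.03 without it. Crmp1, a mediator of semaphorin responses, had 89204, 91851 and 95286 in the sponge libraries and 112070, 99248 and 89297 in the control libraries, with a log2 fold change of -0.12 ± 0.13 (SE), or -0.03 without control library 1. Dpysl3, which encodes the growth cone protein CRMP4, had 173250, 173247 and 171928 in the sponge libraries, against 157047, 172703 and 156467 in the control libraries, with a log2 fold change of 0.09 ± 0.12 (SE), or 0.07 without that library. Its 3 sponge values were close together, and only sponge library 3 was below a control library. Dpysl4 and Dpysl5, further members of the family, had -0.07 ± 0.11 and 0.05 ± 0.14 (log2 fold change, SE), or -0.03 and -0.07 without control library 1. Summed CRMP counts were 414797, 410746 and 415471 in the sponge libraries and 425732, 430616 and 397354 in the control libraries, a narrower range than that of the tubulins or the stathmins.

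Neurofilament genes, which come on as axons mature, all had log2 fold changes below 0. Ina, which encodes alpha-internexin, the neurofilament of immature neurons (chr19:47014698-47025327, plus strand), had 7943, 7725 and 7343 normalised counts in the sponge libraries and 8542, 9253 and 8252 in the control libraries. Nefh, the heavy chain of mature axons (chr11:4938754-4948064, minus strand), had 108, 89.6 and 105 in the sponge libraries and 132, 134 and 164 in the control libraries. In both genes every sponge value was below every control value, and control library 1 was not the extreme one. The log2 fold change of Ina was -0.18 ± 0.11 (SE; 95% interval -0.43 to 0.07, limma adjusted p = 0.92), and -0.19 ± 0.09 without control library 1 (limma adjusted p = 0.66). That of Nefh was -0.50 ± 0.27 (SE; 95% interval -1.13 to 0.14, limma adjusted p = 0.92), and -0.55 ± 0.30 without that library.

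Nefl and Nefm, the light and medium chains, were named after their values were seen. Nefl had 168, 29.2 and 42.4 normalised counts in the sponge libraries, against 270, 109 and 64.7 in the control libraries, with a log2 fold change of -1.05 ± 0.75 (SE) on the log2(value + 1) scale, or -0.49 without control library 1. Nefm had 692, 483 and 430 in the sponge libraries and 747, 794 and 382 in the control libraries, with -0.22 ± 0.33 (log2 fold change, SE), or -0.07 without that library. Both genes overlapped between groups and spread widely within them. Nefl (chr14:68083863-68089095, plus strand) lies within the annotated span of Nefm (chr14:68082590-68124846, minus strand), and the strand setting of the counting is not given in the sources used here, so their reads may be mixed. The median over the 4 neurofilaments was -0.36, and -0.34 without control library 1, with 0 of 4 above 0 in both. Summed neurofilament counts were 8911, 8327 and 7921 in the sponge libraries and 9692, 10289 and 8863 in the control libraries. Most of each sum was Ina.

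**Figure D3:**
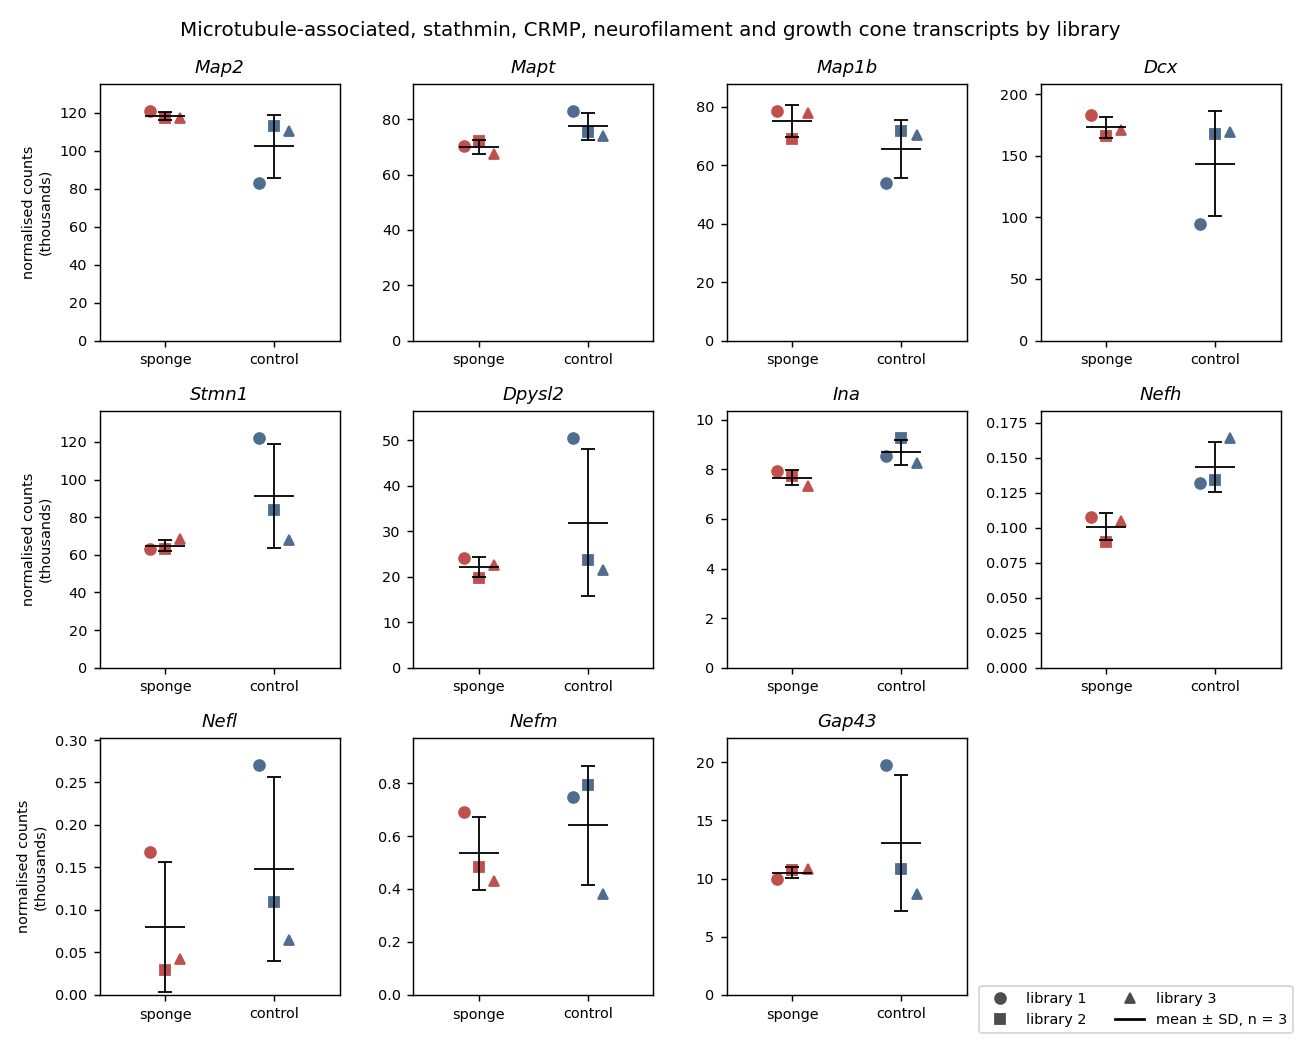
Normalised counts in each library (points; black bars, group mean with SD) of members of the other role groups, sponge group left of control group. Sponge points lie above all control points for Map2 and below all of them for Mapt, Ina and Nefh, and control library 1 lies far from the rest for Dcx and Stmn1.

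Growth cone membrane proteins bind lipids and calmodulin and regulate actin beneath the membrane. Gap43, the best known of them (chr16:42248442-42340651, minus strand), had 9941, 10750 and 10800 normalised counts in the sponge libraries, against 19731, 10850 and 8685 in the control libraries. Marcksl1, a small relative of Marcks, had 200891, 194456 and 207639 in the sponge libraries and 283908, 220532 and 176981 in the control libraries. For both, the sponge values lay inside the control range, with control library 1 on top. The log2 fold change was -0.23 ± 0.27 for Gap43 and -0.15 ± 0.18 for Marcksl1 (SE), and 0.11 and 0.02 without control library 1. Basp1 and Marcks, the other members of this group, had log2 fold changes of 0.05 ± 0.12 and 0.02 ± 0.16 (SE), or 0.05 and 0.13 without that library.

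Of the actin regulators, Cfl1 encodes cofilin, which severs filaments, and Cap1 encodes a cofactor in recycling actin monomers. Cfl1 had 111356, 108560 and 118835 normalised counts in the sponge libraries and 148899, 119832 and 95230 in the control libraries, with a log2 fold change of -0.08 ± 0.18 (SE), or 0.08 without control library 1. Cap1 had 21091, 19925 and 20910 in the sponge libraries and 20090, 20400 and 18942 in the control libraries, with 0.06 ± 0.11 (log2 fold change, SE), or 0.07 without that library. Both overlapped between the groups. Rtn1, a reticulon of the neuronal endoplasmic reticulum, had a log2 fold change of -0.01 ± 0.15 (SE), or 0.11 without control library 1.

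**Figure D4:**
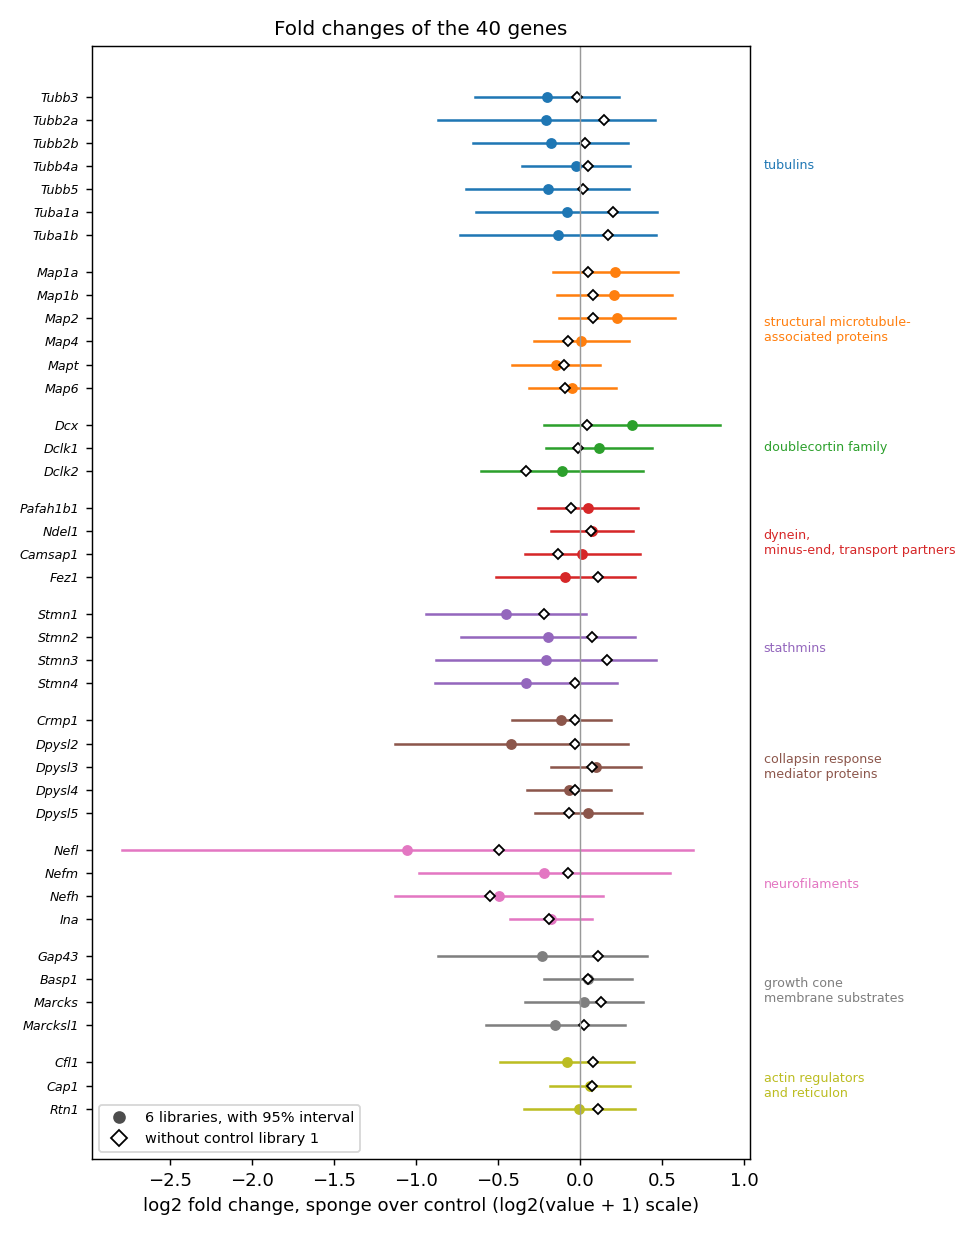
Log2 fold change (sponge over control) of the 40 genes by role group, with all 6 libraries (filled points, with 95% interval) and without control library 1 (open diamonds). With 6 libraries all intervals include 0, and without control library 1 the tubulins and stathmins lie closer to 0 or above it.

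With 6 libraries, 1 gene of the 40 (Map2) had a sponge group wholly above its control group and 3 (Mapt, Nefh and Ina) a sponge group wholly below it, where 11.2% of all tested genes had groups that did not overlap in either direction. Without control library 1, 22 of the 40 were above 0 and 18 below, with a median of 0.03, where 52.0% of all tested genes were above 0 and 48.0% below. Of all tested genes, 0.00890% were then called higher and 0.00% lower, and none of the 40 was called. Unadjusted limma p-values under 0.05 were found for 4 of the 40 (Tuba1a above 0, and Dclk2, Stmn1 and Ina below), against 7.53% of all tested genes in either direction. Groups that did not overlap were then found for 3 higher genes (Tuba1a, Map2 and Stmn3, against 13.4% of all tested genes) and 5 lower ones (Mapt, Nefh, Ina, Camsap1 and Dpysl5, against 11.2%), and for 24.6% of all tested genes in either direction. Map2, Mapt, Nefh and Ina were in both counts by construction, since groups that do not overlap cannot come to overlap when a library is left out.

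The spread within the groups differed. The median coefficient of variation of the 40 genes was 4.65% over the 3 sponge libraries and 18.1% over the 3 control libraries, and it was smaller in the sponge group for 37 of the 40, as for 76.1% of all tested genes. The 95% interval of the log2 fold change extended 0.40 to each side at the median over the 40 genes, from 0.24 to 1.74. Without control library 1 the median was 0.19. These widths are for single genes and are not adjusted over all tested genes, so they are not the detection limit of the adjusted test. In that test even the smallest limma p over all genes, 1.8e-05, had an adjusted p of 0.41.

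Control library 1 was high for genes with short transcripts and low for genes with long ones. For each library, the log2 deviation of a gene from the mean of the other 5 was compared with the length of its longest annotated transcript. Over the 40 genes the Spearman correlation was -0.79 in control library 1 and ran from 0.37 to 0.69 in the other 5 libraries. The mean used for each of those includes control library 1, so their correlations are not independent of its own, here or over all tested genes. These correlations are across genes measured in the same libraries, and genes are not independent replicates. Over 22428 tested genes the same correlation was -0.22 in control library 1 and 0.043 to 0.13 in the others. The log2 fold change of the 40 had a Spearman correlation of 0.60 with length (Pearson 0.46), and of -0.34 (Pearson -0.23) without control library 1. Of the 20 shorter genes, under 3396 bases, 17 were below 0 with a median of -0.16, against 9 of the 20 longer ones with a median of 0.01. Without control library 1 these counts were 6 and 12, with medians of 0.05 and -0.03. When the trend with length was taken out of each library, 32 of the 40 were below 0 with a median of -0.10, where 49.1% of all tested genes were below 0. Under that correction the stathmins and neurofilaments had 0 of 4 above 0 each, with medians of -0.21 and -0.37, and the tubulins 1 of 7 with a median of -0.12.

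**Figure D5:**
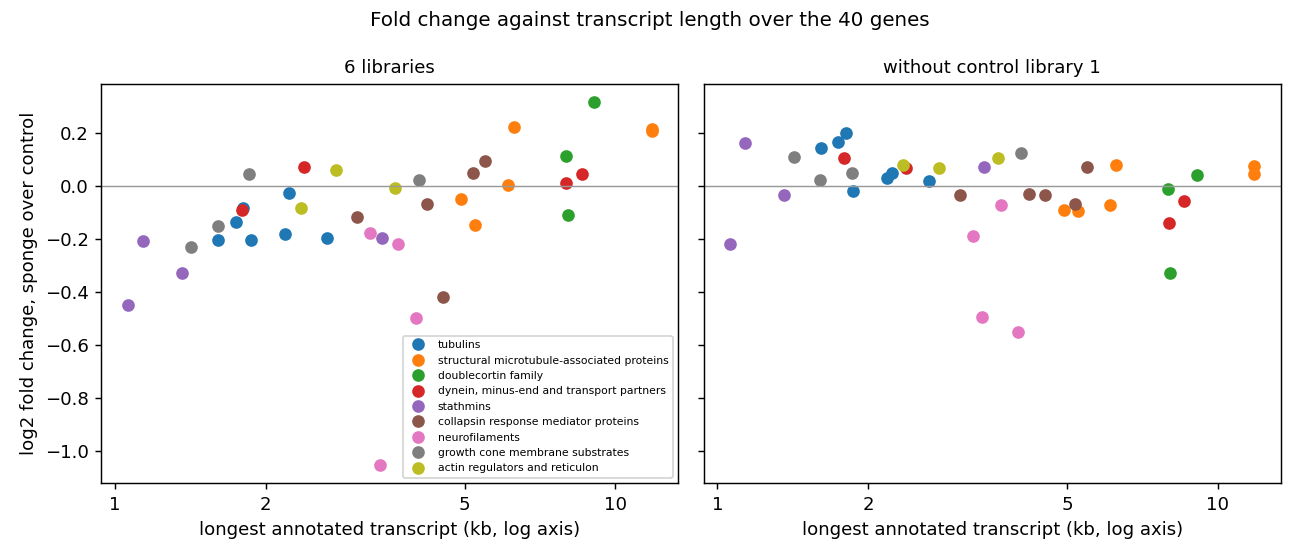
Log2 fold change (sponge over control) of the 40 genes against the length of their longest annotated transcript (kb, log axis), with all 6 libraries and without control library 1. The upward slope with 6 libraries (Spearman 0.60) is not seen without control library 1 (Spearman -0.34).

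The median 3′ UTR was 3576 bases long in the genes with a seed match, against 1087 bases in those without. Their median log2 fold change was 0.05 with 5 of 7 above 0, ranging from -0.42 for Dpysl2 to 0.32 for Dcx, against -0.12 with 9 of 33 above 0 for the genes without a match. Without control library 1 the medians were -0.03 with a match and 0.03 without one. The order of the medians thus turned round when 1 control library was left out.

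Levels of different genes were compared as normalised counts per kb of exon. Tuba1a had the highest level, with 230100 ± 7662 in sponge and 253600 ± 92510 in control libraries (SD, n = 3 each). Marcksl1 followed with mean levels of 125200 in sponge and 141500 in control libraries. Tubb2b came next with 118600 in sponge and 137900 in control libraries. Tubb5 and Tubb3 stood below them at 92110 and 74810 in the sponge libraries, against 108500 and 87760 in the control libraries. From Marcksl1 to Tubb3 each gene overlapped its neighbour in the order, while Tuba1a stood apart from Marcksl1 and Tubb3 from Basp1. Of the 39 pairs of neighbours over the whole order, 31 overlapped in their spread and 8 did not. The lowest levels were those of Nefm, Nefl and Nefh, with 92.6, 23.6 and 25.3 in the sponge libraries, against 110.9, 43.8 and 35.8 in the control libraries. Ina was far above them, with a level of 2367 in sponge and 2680 in control libraries.

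The wider pathway was described through lists of other tubulins, tubulin folding and modifying enzymes, plus-end and severing proteins, further microtubule-associated proteins, dynein and dynactin subunits and growth cone actin regulators. Of their 107 entries 105 were tested. None was called (0.00% of all tested genes in each direction), 45 were above 0 and 60 below, and the median log2 fold change was -0.04. The median was -0.10 for the other tubulins (1 of 8 above 0), 0.05 for folding and modification (11 of 21) and 0.04 for plus-end and severing proteins (9 of 16). It was -0.03 for further microtubule-associated proteins (6 of 17), -0.06 for dynein and dynactin (7 of 16) and -0.05 for the actin regulators (11 of 27). At an unadjusted limma p under 0.05 there was 1 gene of the 105, Tuba1c, in the lower direction, against 1.31% of all tested genes. In the higher direction there were 0, against 1.58%.

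Tuba1c, a further alpha tubulin, had 8738, 8478 and 7969 normalised counts in the sponge libraries, against 11305, 15644 and 9030 in the control libraries. All sponge values were below all control values, as in 5.04% of all tested genes, with control library 2 on top. Its log2 fold change was -0.48 ± 0.20 (SE; limma adjusted p = 0.92), and -0.50 without control library 1. Its exons share windows with Tuba1a and Tuba1b, so its split is as uncertain as theirs. Jakmip1, a microtubule-binding protein of neurons, had 7554, 7626 and 10470 in the sponge libraries and 12090, 9887 and 10821 in the control libraries, with a log2 fold change of -0.37 (-0.29 without control library 1) for the more highly counted of its 2 identifiers in the table.

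In the higher direction the smallest p-values were those of Ckap5, a microtubule polymerase, and Ttll5, which adds glutamate chains to tubulin. Ckap5 had 45745, 39556 and 44537 normalised counts in the sponge libraries, against 30320, 42206 and 37090 in the control libraries. Ttll5 had 4124, 3997 and 4042 in the sponge libraries, against 2302, 3917 and 3640 in the control libraries. The low value of Ttll5 was that of control library 1. The groups overlapped for Ckap5 and did not for Ttll5, with sponge above control as in 6.17% of all tested genes. Their log2 fold changes were 0.25 ± 0.15 and 0.34 ± 0.20 (SE), and 0.13 and 0.10 without control library 1. Tubb4b, a broadly expressed beta tubulin, had 14224, 16044 and 17732 in the sponge libraries and 24327, 17095 and 12909 in the control libraries. Tubb6, a minor beta tubulin here, had 878, 682 and 770 in the sponge libraries and 1160, 827 and 663 in the control libraries. For both, the sponge values lay inside the control range with control library 1 on top. Their log2 fold changes were -0.14 and -0.15, and 0.10 and 0.06 without that library.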

How the data were processed

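RNA-seq of 6 mouse libraries was analysed. Per the submitters' processing notes, STAR 2.7.6a and DESeq2 1.30.1 were used, with builds mm10 and GRCm38; libraries came from a stranded mRNA ligation kit, per the labels' protocols. The deposited table holds a normalised signal, gene counts that the authors divided by 1 size factor per library. A further deposited table holds the authors' comparison, with log2 fold changes, p-values and adjusted p-values for 10812 genes. It was used only where named.

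From the first table, log2(value + 1) was tested with limma 3.58.1 in R 4.3.3 (trend and robust empirical Bayes, two-sided, adjusted p threshold 0.05) on all 22479 genes with a mean of at least 10. Normalised counts summed to between 120284000 and 125814000 per library. Lengths, exons and 3′ UTRs came from GENCODE M21 (GRCm38), in which 35389 of the 35510 identifiers were found. Of the steps, only the main limma fit was run on simulated data, with independent noise for each gene and no trend with transcript length.

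The members and lists were chosen with earlier results of these data known. Libraries were grouped by the labels' plasmid. Values in each library are printed for the most highly counted member of each role group, the 2 with the smallest p and members whose groups did not overlap. From the pathway lists they are printed for the 2 genes of smallest p in each direction, with Tubb4b and Tubb6 added. Alternatives were other scalings, quality weights, a correction for length, filters, pseudocounts, a replicate block and leaving out each library.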

Additional observations from a re-analysis of the deposited data

How the results depend on the processing

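No member was called under any of 16 alternative settings, in which the smallest adjusted limma p of a member was 0.40. Over all genes, array quality weights called 3 higher and 1 lower, and leaving out 1 library called between 0 and 2 higher. Pseudocounts of 0.5 and 10 turned no member's direction. Of the 40, 17 kept theirs in every setting (6 above 0, 11 below), among them Map2, Mapt, Dcx, Stmn1 and all 4 neurofilaments. Having no filter on low values, a minimum mean of 50 or the replicate block could not turn a direction, so these settings add nothing to that count. Leaving out control library 1 turned 18 of the 40. Over the sets that leave out 1 library each, the members' median ran from -0.19 to 0.0271 and the Spearman correlation with transcript length from -0.34 to 0.71. That correlation was 0.0505 after the length correction, also with the replicate block, and -0.0325 with array quality weights. It is near 0 by construction after the correction, and elsewhere the cause was not tested.

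Other reversals were as follows. With array quality weights the log2 fold changes were 0.015 for Tubb2a, 0.0078 for Tubb4a, 0.15 for Tuba1a, 0.0625 for Tuba1b, -0.11 for Map4, -0.0107 for Dclk1, -0.061 for Pafah1b1, -0.10 for Camsap1, 0.0126 for Fez1, 0.0702 for Stmn3, -0.0727 for Dpysl5, -0.0031 for Marcks and 0.0102 for Rtn1. With the length correction, alone or with the replicate block, they were 0.0361 for Tubb4a, -0.0456 for Map1a, -0.0513 for Map1b, -0.11 for Map4, -0.0597 for Dclk1, -0.14 for Pafah1b1, -0.16 for Camsap1 and -0.0223 for Dpysl5. Quantile normalisation gave -0.0037 for Camsap1 and 0.0352 for Rtn1, and TMM factors gave 0.00011 for Rtn1.

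Leaving out 1 library at a time, log2 fold changes that turned ran from -0.14 to 0.10 for Camsap1, -0.24 to 0.079 for Cfl1, -0.0113 to 0.18 for Dclk1, -0.33 to 0.0914 for Dclk2, -0.0686 to 0.12 for Dpysl5, -0.23 to 0.11 for Fez1, -0.48 to 0.11 for Gap43 and -0.0722 to 0.0698 for Map4. They ran from -0.0897 to 0.0084 for Map6, -0.11 to 0.12 for Marcks, -0.32 to 0.0244 for Marcksl1, -0.0574 to 0.12 for Pafah1b1, -0.12 to 0.11 for Rtn1, -0.38 to 0.0742 for Stmn2 and -0.43 to 0.16 for Stmn3. For tubulins they ran from -0.25 to 0.20 for Tuba1a, -0.37 to 0.17 for Tuba1b, -0.47 to 0.14 for Tubb2a, -0.36 to 0.0299 for Tubb2b, -0.12 to 0.0616 for Tubb4a and -0.40 to 0.0189 for Tubb5. The causes of these turns were not tested.

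With the replicate number as a block (replicate block) no member or other gene was called. In this balanced design the block cannot change a log2 fold change, so the members' median (-0.0863) and directions were those of the main fit. Deviations of same-numbered libraries correlated at 0.0096, 0.0054 and -0.0532 for numbers 1, 2 and 3, and 2 of 6 libraries correlated best with their own number, so the numbers were not taken as pairs. The planned edgeR and DESeq2 fits on reads recovered from the normalised values were not run, and the deposited values were tested as they stand. Dividing by the longest transcript in place of merged exons left Tuba1a at the top of the levels but changed the order below it. Tubb2b then ranked 2 and Marcksl1 ranked 3, the reverse of their order by merged exons. Map2 moved from rank 23 to 17 and Tubb4a from 15 to 20. Members' 95% intervals extended 0.40 to each side at the median, or 0.19 without control library 1. What that library or the depth limits was not tested.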

Other observations

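Markers of the other cells of the newborn cortex, a readout outside the 40 cytoskeletal genes, were also summed in each library. Of 8 interneuron markers, 0 had a log2 fold change above 0, where 50.9% of all tested genes did. Their sums were 39388, 53567 and 75500 normalised counts in the sponge libraries and 71636, 73925 and 51688 in the control libraries. Sponge library 3 was the highest of all for this list, so the groups overlapped. Of 7 astrocyte markers 5 were above 0, with sums of 208470, 159190 and 143885 in the sponge libraries and 172156, 161482 and 127292 in the control libraries. Microglial markers summed to 1689, 2216 and 1848 in the sponge libraries and 4005, 2052 and 1708 in the control libraries, where control library 1 was the highest as for the tubulins. Vascular and meningeal markers summed to 7947 to 11884 in the sponge libraries and 8169 to 12078 in the control libraries. No marker of these lists was called by limma with Benjamini-Hochberg adjustment, 1 (an astrocyte marker) had an unadjusted p under 0.05, and their part in the cytoskeletal values was not tested.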
